A study of Mus musculus with 8 samples.

Results

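The germ cell specification factors described here were 6 mouse genes, *Prdm1*, *Prdm14*, *Tfap2c*, *Dppa3*, *Ifitm1* and *Ifitm3*, taken by symbol out of the 21950 genes of a bulk RNA-seq count table. All 6 had a row and counts in each of the 8 libraries. The libraries compared primordial germ cell-like cells made in culture (d6PGCLCs) with primordial germ cells (PGCs) from the fetal gonad, and addressed how closely the starting cells of *in vitro* oogenesis match their counterparts *in vivo*. The d6PGCLCs came from a female BVSC-iPSC line, which carries the reporter transgenes Blimp1-Venus and Stella-ECFP. They were collected at day 8 of culture, 6 days after the start from epiblast-like cells in medium with BMP4, SCF, LIF and EGF. At day 6 this medium was replaced by one without BMP4 among its listed factors. The d6PGCLC sort was that of the start of oocyte differentiation. For it the paper gives a gate on both reporters or on SSEA1 with integrin β3, without stating which applied to these libraries. The PGCs came from E12.5 female gonads of C57BL/6J fetuses without reporters, and were sorted as positive for SSEA1 and integrin β3. Each group had 4 pools from independent experiments. The d6PGCLCs stand for 1 cell line. Culture, genetic background and stage differ between the groups, and the sorting gate may, so that their parts in any difference cannot be told apart. In addition, Blimp1 is the protein of *Prdm1* and Stella that of *Dppa3*. A reporter gate would thus have selected d6PGCLCs with activity of the reporters of these 2 genes, and the gate for PGCs did not.

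In the mouse embryo, BMP signals from neighbouring tissues induce a few epiblast cells to become PGCs. *Prdm1* encodes BLIMP1, a repressor with a PR domain and zinc fingers that shuts down the somatic program, *Prdm14* encodes a related zinc finger protein that supports pluripotency genes and holds back *de novo* DNA methylation, and *Tfap2c* encodes the transcription factor AP-2γ, which acts with them. *Dppa3* (Stella, PGC7) marks PGCs soon after specification and protects DNA methylation of the maternal genome in the zygote, while *Ifitm1* and *Ifitm3* (Fragilis) encode small membrane proteins of the interferon-induced family that appear on the precursors of PGCs.

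The 6 genes lie on 5 chromosomes of GRCm38. *Prdm1* (Entrez 12142) spans chr10:44437174-44528558 on the minus strand, with 8 exons in the coding transcript closest in length to the counted one. *Prdm14* (Entrez 383491) lies at chr1:13113428-13127163 on the minus strand and also has 8 exons, and *Tfap2c* (Entrez 21420) at chr2:172545678-172558622 on the plus strand with 7 exons. *Dppa3* (Entrez 73708), with 4 exons, occupies chr6:122626424-122630271 on the plus strand. *Ifitm1* (Entrez 68713; chr7:140967429-140969827, plus strand) and *Ifitm3* (Entrez 66141; chr7:141009590-141010744, minus strand) have 2 exons each and are neighbours 39762 bases apart. Reads were counted on exons of 1 isoform per gene, with an exonic length of 5604 bases for *Prdm1*, 2913 for *Prdm14*, 3058 for *Tfap2c*, 978 for *Dppa3*, 782 for *Ifitm1* and 728 for *Ifitm3*. None of the 100-base words of the coding transcripts closest in length to the counted ones occurred in a transcript of another gene.

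The RefSeq promoter table held 3 of the 6 members. The 250 bases upstream of their annotated starts are printed with those of *Ifitm2*, the neighbour of *Ifitm1*, because *Ifitm2* differed from both members in the measurements that follow. All are printed 5′ to 3′ on the strand of the gene in GRCm38.p6, and capitals mark matches to the motifs searched. The windows are chr7:140967826-140968075 (plus strand) for *Ifitm1*, chr7:141010745-141010994 (minus) for *Ifitm3*, chr7:140955962-140956211 (minus) for *Ifitm2* and chr10:44458749-44458998 (minus) for *Prdm1*. The table gives 1 start per gene, and those of *Prdm1* and *Ifitm1* lie inside the printed gene spans, which reach farther upstream.
Ifitm1: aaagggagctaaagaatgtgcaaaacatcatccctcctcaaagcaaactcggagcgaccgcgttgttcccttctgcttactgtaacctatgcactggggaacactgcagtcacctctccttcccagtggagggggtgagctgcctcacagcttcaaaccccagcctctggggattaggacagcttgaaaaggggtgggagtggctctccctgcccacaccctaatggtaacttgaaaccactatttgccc
Ifitm3: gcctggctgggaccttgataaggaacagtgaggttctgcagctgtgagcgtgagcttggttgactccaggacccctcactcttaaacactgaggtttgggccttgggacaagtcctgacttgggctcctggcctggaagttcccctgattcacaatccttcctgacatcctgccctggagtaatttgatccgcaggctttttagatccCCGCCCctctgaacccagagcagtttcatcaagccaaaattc
Ifitm2: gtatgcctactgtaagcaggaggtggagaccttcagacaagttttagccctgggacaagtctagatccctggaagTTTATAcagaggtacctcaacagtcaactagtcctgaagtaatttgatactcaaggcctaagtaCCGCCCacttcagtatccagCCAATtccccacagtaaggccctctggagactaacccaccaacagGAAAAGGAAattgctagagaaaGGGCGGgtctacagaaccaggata
Prdm1: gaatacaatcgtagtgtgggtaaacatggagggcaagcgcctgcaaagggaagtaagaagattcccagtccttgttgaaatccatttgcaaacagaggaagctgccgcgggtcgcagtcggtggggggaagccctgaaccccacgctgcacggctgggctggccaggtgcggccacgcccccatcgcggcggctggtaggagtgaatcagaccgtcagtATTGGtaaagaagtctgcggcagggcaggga

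Both strands were searched for the core of the interferon-stimulated response element (GAAANNGAA), the GC box (GGGCGG), an AP-2 site (GCCNNNGGC), the TATA box (TATAAA) and the CCAAT box (CCAAT). Windows of the same length that held a match made up 7.13%, 32.7%, 13.7%, 12.4% and 33.8% of 32851 promoters, respectively. The *Ifitm1* window held no match. The *Ifitm3* window held a GC box on the opposite strand, 42 bases upstream of the start, and the *Prdm1* window a CCAAT box on the opposite strand, 31 bases upstream. The *Ifitm2* window held a match to the interferon-stimulated response element core (46 bases upstream), a GC box at 24 bases and another on the opposite strand at 111 bases, a CCAAT box at 91 bases and a TATA box on the opposite strand at 175 bases. None of these matches overlapped. They describe letters in these windows and were not tested for binding.

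The libraries held 7991437 to 12024841 counted reads, and the 6 members together took 0.291 to 0.364% of them in d6PGCLCs and 0.164 to 0.192% in PGCs. The labelled identity was checked on marker genes. Early germ cell genes were abundant in both groups, with a summed level of 6957 to 7559 CPM (counts scaled to 1e6 reads) in d6PGCLCs and 5603 to 6004 CPM in PGCs over 16 genes. Markers of gonadal somatic cells summed to 7.64 to 9.58 CPM in d6PGCLCs and 11.6 to 16.6 CPM in PGCs over 11 genes, and endothelial and blood cell markers to 34.5 to 49.2 and 16.0 to 28.8 CPM over 8 genes. Epiblast and mesoderm markers summed to 9.70 to 12.51 CPM in d6PGCLCs and 23.6 to 30.1 CPM in PGCs over 11 genes. The genes *Nr5a1*, *Gata4*, *Wt1*, *Kdr*, *Ptprc* and *Gata1* had means of at most 1.12 CPM in both groups. The most abundant genes of these lists included *Tek*, at 16.3 CPM in d6PGCLCs and 13.97 CPM in PGCs, and *Star*, at 6.91 and 5.71 CPM, and neither was called. Of the markers, 6 somatic and 8 epiblast and mesoderm genes were called lower in d6PGCLCs (1 and 4 with filterByExpr of edgeR), 1 epiblast and mesoderm gene higher, and the endothelial and blood list had 2 higher, *Cdh5* (4.18 CPM in PGCs and 10.97 CPM in d6PGCLCs) and *Cd68* (2.25 and 12.6 CPM). Over all genes, 16.1% were called higher and 15.4% lower in d6PGCLCs. The part of the cells behind these markers in the levels of the members was not tested. In PGC replicate 2 the dissociation response genes summed to 1255 CPM, against 551.7 to 627 CPM in the other PGC libraries, and PGC replicate 4 held 99 counts on Y-linked genes against 0 in the other libraries. Of 13 dissociation response genes, 3 were called higher in d6PGCLCs, *Junb* (1.83), *Zfp36* (1.75) and *Nr4a1* (1.602), and 7 lower. Among the lower were *Jun* (-2.05) and the near-identical heat shock genes *Hspa1a* and *Hspa1b* (-6.42 and -5.16, uncertain as reads matching both were not counted). In PGC replicate 2, *Jun* stood at 156 CPM, against 29.3 to 41.9 CPM in the other PGC libraries. *Hspa1a* and *Hspa1b* stood there at 144 and 181 CPM, against 4.42 to 20.3 and 6.41 to 23.2 CPM. The fold changes of these genes thus rest in part on that library. Without PGC replicate 2, 5 dissociation response genes were called higher and 5 lower. The part of this list in the levels of the members was not tested. The fits were repeated without PGC replicates 2 and 4, an alternative added after the data were seen.

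Transcripts of all 6 specification factors were more abundant in d6PGCLCs than in E12.5 PGCs, between 1.57-fold for *Tfap2c* and 2.31-fold for *Prdm1*. For each of the 6, every d6PGCLC library lay above every PGC library. Such a separation in this direction was found for 15.4% of all 21950 genes. In the edgeR quasi-likelihood test, with p-values adjusted over all genes, 6 of 6 members passed an adjusted p of at most 0.05 in the direction of d6PGCLCs, against 16.1% of all genes that were higher and 15.4% that were lower. Among the 1585 genes with a mean CPM at least that of the lowest member, 28.1% were higher. Members are not replicates of a condition, so these counts describe 6 genes in the same 8 libraries. In pools of cells, fewer cells with a transcript and less RNA per cell cannot be told apart.

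*Prdm1* reached 415, 407, 452 and 502 CPM in d6PGCLC replicates 1 to 4 and 202, 167, 193 and 208 CPM in PGC replicates 1 to 4. The lowest d6PGCLC library was 1.96-fold above the highest PGC library, the widest separation among the members. The means were 444 ± 43.7 and 192 ± 18.1 CPM (SD, n = 4 each), a 2.31-fold difference (95% confidence interval 2.01 to 2.64; log2 fold change 1.21, SE 0.094, edgeR adjusted p = 2.11e-09).

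*Prdm14* was the least abundant member by CPM in both groups. It reached 214, 184, 224 and 253 CPM in the d6PGCLC libraries and 128, 109, 109 and 114 CPM in the PGC libraries, with *Prdm14* counts between 1024 and 2703 reads per library. The lowest d6PGCLC library, replicate 2, was 1.44-fold above the highest PGC library, replicate 1. The means of 219 ± 28.6 and 115 ± 8.86 CPM (SD, n = 4 each) differed 1.90-fold (interval 1.65 to 2.20, edgeR adjusted p = 2.38e-07).

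*Tfap2c* showed the smallest change and, in PGCs, the tightest replicates. Its d6PGCLC libraries held 509, 445, 532 and 569.7 CPM and its PGC libraries 324, 327, 318 and 338 CPM, a coefficient of variation of 10.2% and 2.51%, respectively. The groups were separated by a factor of 1.32 at their closest libraries. The means of 514 ± 52.6 and 327 ± 8.19 CPM (SD, n = 4 each) gave a fold of 1.57 (interval 1.39 to 1.79, edgeR adjusted p = 3.93e-06).

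**Figure D1:**
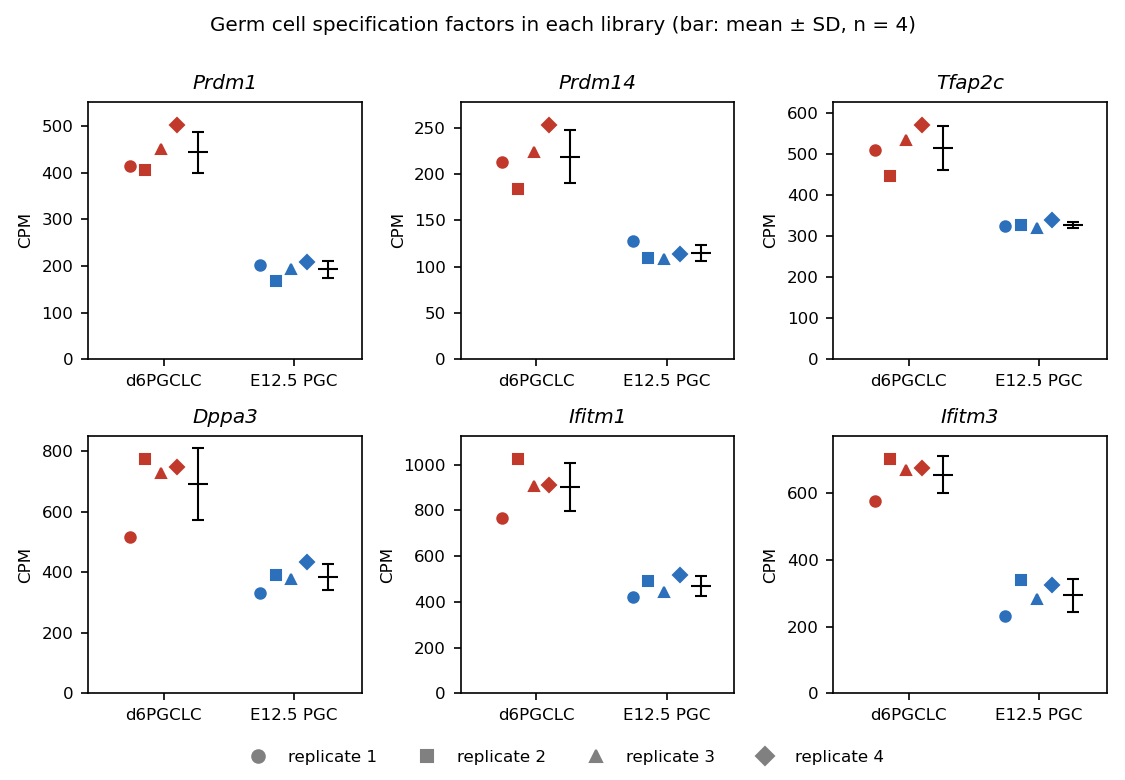
CPM (linear axes from 0) of the 6 specification factors in each library, with 1 point per replicate and bars for mean ± SD (n = 4). In every panel the d6PGCLC points lie above the PGC points, and the closest approach is *Dppa3*, where d6PGCLC replicate 1 (517 CPM) is 1.19-fold above PGC replicate 4 (435 CPM).

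*Dppa3* was measured at 517, 774, 727 and 748 CPM in d6PGCLCs and at 332, 390.3, 379 and 435 CPM in PGCs. Its d6PGCLC replicate 1 stood below the other d6PGCLC libraries and came closest to the PGC libraries, and the coefficient of variation in d6PGCLCs, 17.1%, was the highest of the 6 members. The means of 691 ± 118 and 384 ± 42.5 CPM (SD, n = 4 each) differed 1.80-fold (interval 1.53 to 2.12, edgeR adjusted p = 3.5e-06). *Prdm1* and *Dppa3*, the genes behind the reporters of the d6PGCLC line, thus had the largest and the second smallest fold of the 6. Whether the transgenes carry exons of these genes is not given in the sources used here. The part of a reporter gate in their levels was not tested.

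*Ifitm1* had the highest level of the members. Its libraries held 766, 1024, 907 and 909 CPM in d6PGCLCs and 423, 491, 442 and 519 CPM in PGCs. The means of 902 ± 106 and 469 ± 44.5 CPM (SD, n = 4 each) differed 1.92-fold (interval 1.68 to 2.21, edgeR adjusted p = 9.12e-08).

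*Ifitm3*, on the same chromosome, was measured at 575, 700.4, 669 and 674 CPM in d6PGCLCs and at 230.2, 339, 281 and 323 CPM in PGCs. It varied most of the members in PGCs, with a coefficient of variation of 16.5%, and the groups still did not overlap. The means of 654 ± 55.0 and 293 ± 48.5 CPM (SD, n = 4 each) differed 2.23-fold (interval 1.91 to 2.60, edgeR adjusted p = 2.16e-08), the second largest fold of the members.

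The changes were modest in size beside the threshold used in the study, which asks for an adjusted p of at most 0.05 together with a log2 fold change of 2 or more in size. By that rule 3.24% of all genes were higher in d6PGCLCs, and none of the 6 members was, with a count of 0 at an unadjusted p under 0.05, 0 in DESeq2 and 0 in the edgeR likelihood ratio test. The members' log2 fold changes lay between 0.65 and 1.21, with a median of 0.94 against 0 over all genes. All genes here include 4940 with no count in any library. Over the genes with a count, the median log2 fold change was -0.026. Among these genes with a count, the members lay at percentiles 76.6 (*Tfap2c*) to 85.8 (*Prdm1*). A log2 fold change within the members' range was measured for 1567 genes, of which 1081 had an adjusted p of at most 0.05. Tested against a 2-fold change with glmTreat of edgeR, 0 members passed after adjustment. *Prdm1* had an unadjusted p of 0.00506 (adjusted 0.0673) and *Ifitm3* 0.0229 (adjusted 0.222) in that test. Without PGC replicates 2 and 4, the 6 members stayed called, and the log2 fold changes were 1.17 for *Prdm1*, 0.89 for *Prdm14*, 0.68 for *Tfap2c*, 0.96 for *Dppa3*, 1.06 for *Ifitm1* and 1.35 for *Ifitm3*.

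**Figure D2:**
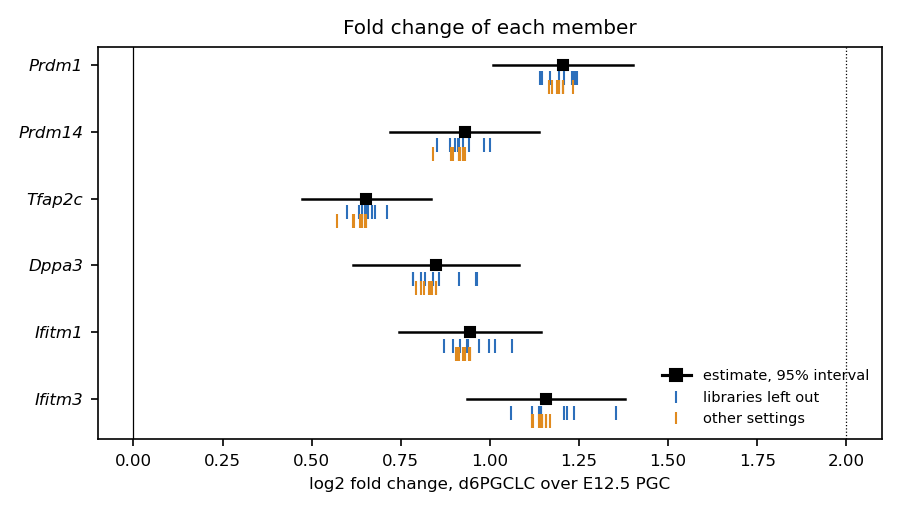
Log2 fold change of d6PGCLC over E12.5 PGC for each member (black square, edgeR estimate with 95% confidence interval), with the estimates after leaving out libraries (blue ticks) and under other processing settings (orange ticks). All values lie between 0.57 and 1.35, to the right of 0 and left of the dotted line at 2.

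Per length, in TPM (transcripts scaled to the same total in each library), the short membrane protein and *Dppa3* transcripts dominated. In d6PGCLCs the order of the mean TPM was *Ifitm1* (3013 ± 252, SD, n = 4), *Ifitm3* (2352 ± 138), *Dppa3* (1846 ± 274), *Tfap2c* (441 ± 55.4), *Prdm1* (208 ± 23.4) and *Prdm14* (197 ± 29.9). Neighbours in this order did not overlap over the libraries, except *Prdm1* and *Prdm14*, whose TPM ranges of 181 to 237 and 158 to 230.1 overlapped although *Prdm1* was above in 4 of 4 libraries. Among all genes, *Ifitm1*, *Ifitm3* and *Dppa3* held ranks 17, 28 and 35 by mean TPM in d6PGCLCs, and *Prdm14* rank 1095. In PGCs *Ifitm1* came first again (1624 ± 116 TPM, rank 39), followed by *Ifitm3* (1090 ± 159) and *Dppa3* (1063 ± 87.9). The TPM ranges of *Ifitm3* and *Dppa3* overlapped there, with *Ifitm3* above *Dppa3* in 1 of 4 libraries, and their means changed places without PGC replicate 2. *Tfap2c* followed at 290 ± 6.84 TPM, and the last 2 places were exchanged, with *Prdm14* at 107 ± 10.9 and *Prdm1* at 93.2 ± 8.99 TPM. *Prdm14* was above *Prdm1* in 4 of 4 PGC libraries, and their ranges overlapped here as well.

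**Figure D3:**
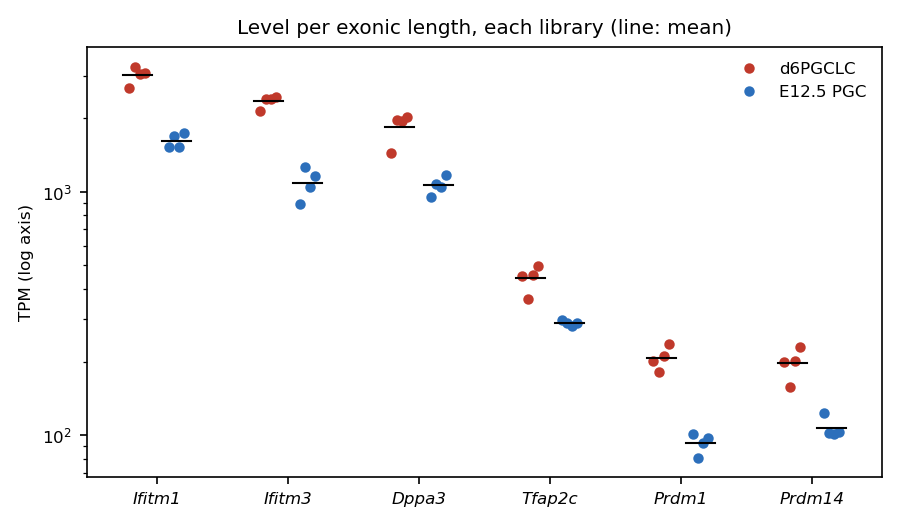
TPM (log axis) of each member in the 4 d6PGCLC (red) and 4 E12.5 PGC libraries (blue), with lines at the mean. *Ifitm1* is highest in both groups, and *Prdm1* (208 against 93.2 TPM) and *Prdm14* (197 against 107 TPM) change places at the bottom.

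Whether the members changed to different degrees was asked of their log2 ratios within each library, which need no scaling between libraries, in 15 pairs of members with two-sided exact permutation tests of 4 against 4 libraries. The smallest p this design allows, 0.0286, was reached by 5 pairs, and 0 pairs passed 0.05 once adjusted over the 15 pairs (adjusted p = 0.0857 for those 5). Larger differences in these 5 pairs could not have lowered that adjusted p, so it does not show that the members changed alike. The largest difference was in *Prdm1* to *Tfap2c*, with a mean log2 ratio of -0.21 ± 0.071 in d6PGCLCs and -0.77 ± 0.14 in PGCs (SD), a difference of 0.56. *Prdm1* to *Prdm14* (difference 0.28) and *Prdm14* to *Tfap2c* (0.27) were also higher in each d6PGCLC library than in any PGC library. *Tfap2c* to *Ifitm3* (-0.52) and *Dppa3* to *Ifitm3* (-0.33) were lower. Among the 3 transcription factors, the estimated shift thus decreased from *Prdm1* over *Prdm14* to *Tfap2c*, without passing the adjusted threshold in any pair. For the other 10 pairs the groups overlapped, with differences from -0.29 to 0.37.

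**Figure D4:**
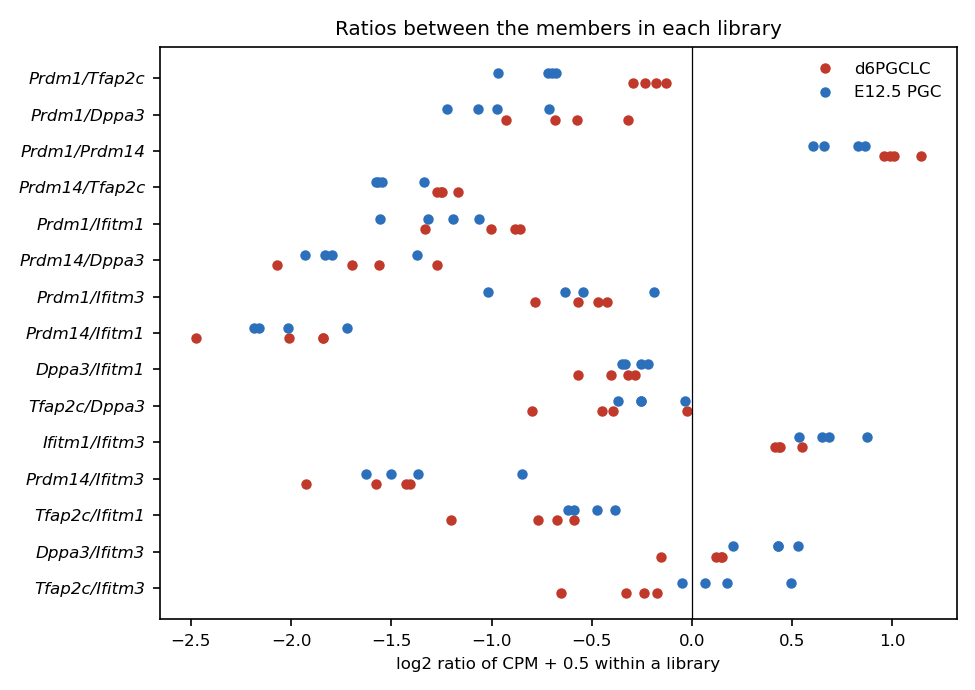
Log2 ratio of CPM + 0.5 between 2 members within each library, for the 15 pairs, in d6PGCLCs (red) and E12.5 PGCs (blue). The colours separate in 5 pairs, among them *Prdm1*/*Tfap2c* (difference 0.56) and *Tfap2c*/*Ifitm3* (-0.52).

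Among the d6PGCLC libraries, the members moved in 2 sets that differ in transcript length. *Dppa3*, *Ifitm1* and *Ifitm3*, with 728 to 978 exonic bases, were lowest in d6PGCLC replicate 1 and highest in replicate 2, with mean log2 deviations from the group mean of -0.27 and 0.16, and they were lowest in PGC replicate 1 (-0.23). *Prdm1*, *Prdm14* and *Tfap2c*, with 2913 to 5604 bases, were lowest in d6PGCLC replicate 2 (-0.19) and highest in replicate 4 (0.19). In PGCs the long members did not move together, since *Prdm1* was lowest in replicate 2 and *Prdm14* and *Tfap2c* in replicate 3. The 409 genes under 1000 bases had median deviations of -0.25 and 0.20 in d6PGCLC replicates 1 and 2 and -0.22 in PGC replicate 1, while the 5219 genes over 2500 bases had 0.056, -0.034 and 0.046, and -0.0042 in d6PGCLC replicate 4. With each library corrected for a loess trend on exonic length, the log2 fold changes were 1.23 for *Prdm1*, 0.84 for *Prdm14*, 0.57 for *Tfap2c*, 0.79 for *Dppa3*, 0.91 for *Ifitm1* and 1.14 for *Ifitm3*, and all 6 stayed called.

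*Ifitm2* lies 7742 bases from *Ifitm1*, encodes another membrane protein of the same family, and changed less than both members. It was measured at 491, 582, 478 and 482 CPM in d6PGCLCs and at 383, 475, 468 and 474 CPM in PGCs, so that the closest libraries of the groups nearly met. Its mean was 508 ± 49.6 against 449.9 ± 44.8 CPM (SD, n = 4 each), a log2 fold change of 0.18 (SE 0.094, edgeR adjusted p = 0.185). Within libraries, the log2 ratio of *Ifitm1* to *Ifitm2* was 0.82 ± 0.13 in d6PGCLCs and 0.060 ± 0.10 in PGCs, and that of *Ifitm3* to *Ifitm2* 0.37 ± 0.14 and -0.63 ± 0.13. Both ratios were higher in every d6PGCLC library, by 0.76 and 0.99, with p = 0.0286 in a two-sided exact permutation test, the smallest possible, and the same p adjusted over the 2 ratios, which were chosen after the values were seen. Per length *Ifitm2* stood at 1880 TPM in d6PGCLCs and 1724 TPM in PGCs, so that its mean was between *Ifitm3* and *Dppa3* in d6PGCLCs and above all 6 members in PGCs. The remaining *Ifitm* genes had means of at most 2.07 CPM.

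Around the members, the other nearest genes in the table changed in both directions, as did all genes (16.1% called higher and 15.4% lower). All 4 genes flanking *Dppa3* on chromosome 6 were higher in d6PGCLCs. They were *Gdf3*, a TGF-β family ligand (log2 fold change 0.79, SE 0.13, edgeR adjusted p = 3.96e-05), *Apobec1*, a cytidine deaminase (2.54, from 1.03 to 6.15 CPM), *Nanog*, a pluripotency transcription factor (1.25, from 257 to 610.1 CPM) and *Slc2a3*, a glucose transporter (2.23, from 293 to 1372 CPM). Of these, *Nanog* starts 77217 bases from *Dppa3*. Next to *Ifitm3*, *B4galnt4* was higher (1.13). On the sides of *Prdm1*, *Atg5* (-0.39) and *Popdc3* (-2.06, from 1.48 to 0.364 CPM) were lower and *Prep* was higher (0.25). *Sulf1* (-1.29) and *Ncoa2* (-0.37) near *Prdm14* were lower, and near *Tfap2c* *Rtf2* was higher (0.27) and *Spo11*, which makes the DNA breaks of meiosis, lower (-2.87). *Mir1929* near *Prdm1*, *Slco5a1* and *Tram1* near *Prdm14*, *Fam209* and *Bmp7* near *Tfap2c* and *Ifitm6* beside *Ifitm3* were not called, and *Ifitm5*, at 2.07 CPM in PGCs and 0.961 CPM in d6PGCLCs, was just past the threshold (lower, edgeR adjusted p = 0.0491).

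Of 12 other PR domain genes in the table, 0 were called higher in the edgeR test, 9 were not called and 3 were lower, *Prdm2* (-0.43), *Prdm15* (-0.63) and *Prdm11* (-1.48). The list median was -0.34 against 0 over all genes, of which 16.1% were higher and 15.4% lower. The other 4 AP-2 genes were at or close to the limit of detection, with a summed level of at most 1.11 CPM in any library against 318 to 569.7 CPM for *Tfap2c*. *Tfap2e* was called lower, with 0 counts in d6PGCLCs and a mean of 0.525 CPM in PGCs.

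Among 11 genes for partners of the factors, 3 were higher, 2 lower and 6 not called, with a median of -0.040. These counts stand against 16.1% higher and 15.4% lower of all genes. Among genes with a mean CPM at least that of the lowest member, 28.1% were higher. The Polycomb subunits *Suz12* (0.49) and *Ezh2* (0.36) and the PRDM14 partner gene *Cbfa2t2* (0.31) were higher, each with a smaller estimate than any of the 6 members. *Runx1t1*, of the same family as *Cbfa2t2*, was lower (-3.64), and so was the histone methyltransferase gene *Ehmt1* (-0.59). *Prmt5*, which encodes an arginine methyltransferase that associates with BLIMP1, had 308 ± 15.9 and 345 ± 15.5 CPM (SD, n = 4 each) and was not called.

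Upstream of the factors, 2 of 17 genes of the inducing signals were higher and 6 lower, with a median of -0.29. Of all genes, 16.1% were higher and 15.4% lower. *Bmp4* was at 2.67 CPM in PGCs and 32.3 CPM in d6PGCLCs (log2 fold change 3.60), and its effector *Smad1* at 15.7 and 23.2 CPM (0.56). The receptor genes *Acvr1* (-1.17) and *Bmpr1a* (-0.36) and *Lin28a*, an RNA-binding protein gene (-1.23), were lower. Of 14 genes that are repressed when PGCs are specified, 3 were higher and 8 lower, with a median of -0.81. With genes of low counts removed 5 were lower, and without PGC replicates 2 and 4 the number was 4. The *de novo* methyltransferase gene *Dnmt3a* was lower (-1.06) and *Dnmt3b* higher (0.94, from 10.6 to 20.4 CPM). *Hand1*, a mesoderm regulator, was lower (-3.92, from 8.26 to 0.548 CPM).

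Of 16 early germ cell genes, 6 were higher, 4 lower and 6 not called, with a median of 0.19. Of all genes, 16.1% were higher and 15.4% lower. Among genes with a mean CPM at least that of the lowest member, 28.1% were higher. The pluripotency genes *Nanog* (1.25), *Sox2* (0.85) and *Pou5f1* (0.74), the alkaline phosphatase gene *Alpl* (0.79), *Klf2* (0.70) and the chemokine receptor gene *Cxcr4* (0.51) were higher, in or below the range of the 6 factors apart from *Nanog*. *Itgb3*, which encodes the integrin β3 of the PGC gate (-0.72), and *Fut4* (-3.48) were lower, as were the RNA-binding protein genes *Dnd1* (-0.59) and *Elavl2* (-0.45). The later germ cell genes went the other way from the factors, with 0 of 11 higher, 9 lower and a median of -2.84. *Dazl*, which licenses germ cells for sexual differentiation, averaged 37.7 ± 23.2 CPM in the d6PGCLC libraries against 1262 ± 241 CPM in PGCs, and *Ddx4*, an RNA helicase of germ cells, at 35.5 ± 6.60 and 760.4 ± 92.2 CPM (SD, n = 4 each).

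Of 16 interferon-stimulated genes other than *Ifitm*, 5 were higher, 1 lower and 10 not called, against 16.1% and 15.4% of all genes, with a median of 0.33. *Ifih1* (2.28), *Rsad2* (1.77) and *Oas1a* (2.39), all with means of at most 4.37 CPM, and *Stat2* (0.54) were higher, and *Ddx58*, an RNA sensor gene, was lower (-1.38). *Irf1* (181 and 156 CPM) and *Bst2* (128 and 122 CPM in d6PGCLCs and PGCs) were the 2 most abundant genes of this list and were not called. With genes of low counts removed, 3 interferon-stimulated genes were called higher.

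**Figure D5:**
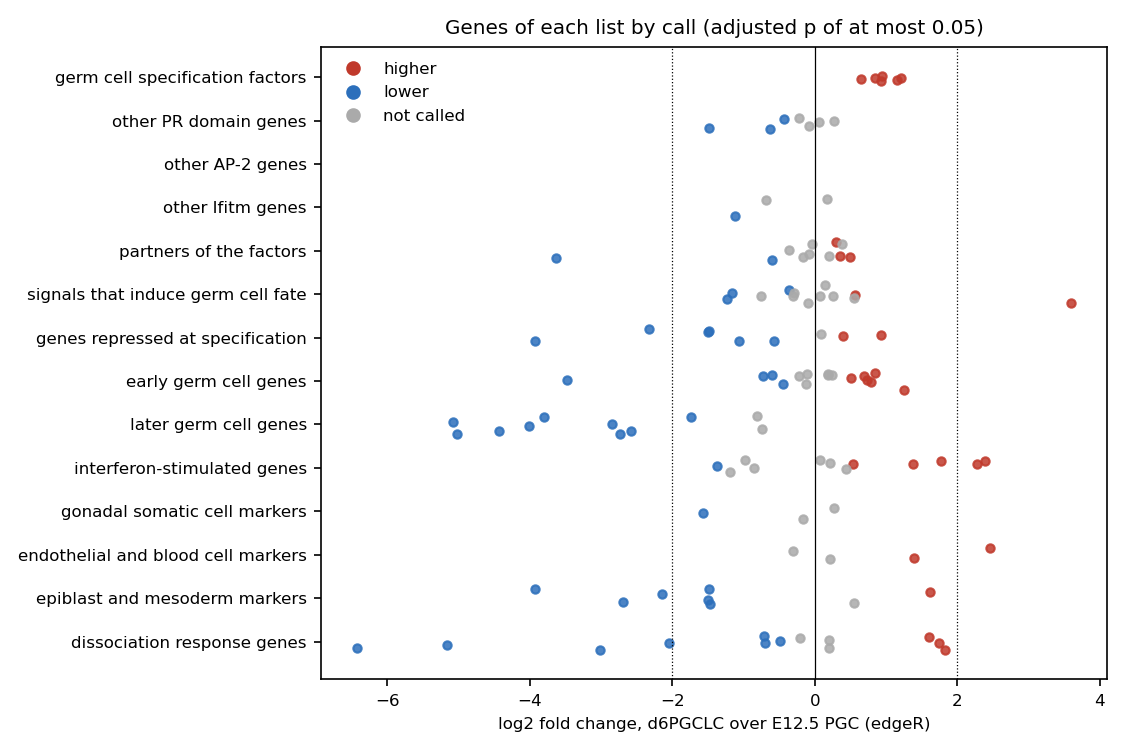
Log2 fold change of d6PGCLC over E12.5 PGC (edgeR) for the genes of each list, without genes that had no more than 3 counts in each library of either group; red, blue and grey mark genes called higher, lower and not called, and dotted lines a change of 2. The 6 specification factors fall between 0.65 and 1.21, while 9 of the 11 later germ cell genes are called lower.

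The genes whose pattern over the 8 libraries was most like that of a member were found by the smallest root mean square difference of centred log2(CPM + 0.5); only genes averaging 10 CPM or more entered. *Epas1* was closest to *Prdm1* (0.095), *Usp2* to *Prdm14* (0.062), *Mtss1* to *Tfap2c* (0.042), *Tceal9* to *Dppa3* (0.061), *Sugt1* to *Ifitm1* (0.070) and *Myl6* to *Ifitm3* (0.064). The next closest were *Gng12* and *Usf2* for *Prdm1*, *Elovl6* and *Slc38a1* for *Prdm14*, *Trim25* and *Kat2b* for *Tfap2c*, *Tmem107* and *Ppt1* for *Dppa3*, *2410003L11Rik* and *Npc2* for *Ifitm1*, and *Faap20* for *Ifitm3*. No member was among the closest genes of another.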

How the data were processed

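RNA of 4 d6PGCLC and 4 E12.5 PGC pools was made into poly(A) stranded libraries and sequenced as single-end reads. The authors aligned reads with STAR to GRCm38, per the submitters' processing notes, chose 1 isoform per gene at random and deposited raw counts of unique reads per gene, without normalization. The deposited table also gives the exonic length of that isoform, used here for TPM. Whether counting used strand is not given in the sources used here. Symbols were found for 21907 of 21950 identifiers. The members and gene lists were chosen with earlier results of these data known.

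Counts were scaled by TMM and tested without a filter by the quasi-likelihood functions (glmQLFit, glmQLFTest) of edgeR 4.0.16 in R 4.3.3, at a prior count of 0.125, with cell type as the only term and Benjamini-Hochberg adjustment over all genes. Standard errors and 95% confidence intervals come from the same fit. A test on simulated data called 194 of 200 changed genes and 30 of 21750 unchanged genes. No pair of replicates agreed within sampling noise. The p-values measure the spread between pools. Alternatives were DESeq2 1.42.0, the likelihood ratio test, other scalings, filters, a length offset, a replicate block and leaving out libraries. Ratios used CPM + 0.5. A gene with at most 3 counts in each library of a group was taken as at the limit of detection there.

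The genes named are the members, genes of the lists (largest changes and defining genes), the 2 nearest genes on each side of a member and the 3 genes most like it; 1 of these most similar genes is not reported here. Whether replicate numbers pair the groups is not known, and the main fit did not pair them. A fit with a replicate block is given in the closing section. Figures were drawn with matplotlib 3.10.9. Promoter sequences and gene spans are from RefSeq, GRCm38.p6, and exon numbers from GENCODE.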

Additional observations from a re-analysis of the deposited data

Results flagged for a closer look

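Of 229 sets of 4 libraries examined, 21 held a library far from the others of its group, where chance flags about 1 in 20, or 11.5 sets. No CPM value of the 6 members was among them. Ratios between members were, in 3 cases. The log2 ratio of *Prdm1* to *Tfap2c* was -0.97 in PGC replicate 2 against -0.72 to -0.68 in the other PGC libraries, that of *Prdm14* to *Tfap2c* was -1.34 in PGC replicate 1 against -1.58 to -1.54, and that of *Dppa3* to *Ifitm3* was -0.15 in d6PGCLC replicate 1 against 0.12 to 0.15.

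*Ifitm2* stood apart in d6PGCLC replicate 2 (582 CPM against 478 to 491) and in PGC replicate 1 (383 CPM against 468 to 475), and with it the sum of the other *Ifitm* genes (584 and 388 CPM). In d6PGCLC replicate 1, *Apobec1* was high (10.8 CPM against 4.15 to 4.99), and *B4galnt4* (35.5 CPM) and the sum of the genes repressed at specification (312 CPM) were low. In d6PGCLC replicate 2, *Prdm2* (117 CPM) and *Ddx58* (6.11 CPM) were low. In PGC replicate 1, *Tfap2a* (0.374 CPM), *Bmp4* (3.12 CPM) and *Acvr1* (59.5 CPM) were high. *Prdm15* (55.7 CPM) and *Alpl* (614 CPM) were high in PGC replicate 3. The dissociation response genes summed to 1255 CPM in PGC replicate 2, against 552 to 627 CPM, and its genes *Jun* (156 CPM against 29.3 to 41.9), *Hspa1a* (144 CPM against 4.42 to 20.3) and *Hspa1b* (181 CPM against 6.41 to 23.2) stood apart in the same library. The causes were not tested.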

How the results depend on the processing

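Each member kept its direction and an adjusted p of at most 0.05 in all 19 alternatives of its fold change. Leaving out each library in turn gave log2 fold changes of 1.14 to 1.25 for *Prdm1*, 0.85 to 1.00 for *Prdm14*, 0.60 to 0.71 for *Tfap2c*, 0.78 to 0.96 for *Dppa3*, 0.87 to 1.01 for *Ifitm1* and 1.06 to 1.24 for *Ifitm3*, and the largest adjusted p was 4.73e-05, for *Tfap2c*. The glmTreat test against a 2-fold change called 0 of the 6 members, by its stricter null hypothesis.

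Some ratios between members turned sign without 1 library, none of them with an adjusted p of at most 0.05. *Prdm14* to *Dppa3* became -0.042 without d6PGCLC replicate 1 (range over libraries left out -0.042 to 0.22). *Prdm14* to *Ifitm1* became 0.12 without d6PGCLC replicate 2 and 0.079 without PGC replicate 1 (range -0.088 to 0.12). *Prdm1* to *Ifitm3* became -0.011 without d6PGCLC replicate 4 and -0.11 without PGC replicate 2 (range -0.11 to 0.17).

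Of listed genes, 25 were called higher and 52 lower, with 21 to 28 and 47 to 54 when a library was left out. With either filter on low counts, the other AP-2 genes called lower fell from 1 to 0. The genes repressed at specification called lower then fell from 8 to 5, and the interferon-stimulated genes called higher from 5 to 3. The other *Ifitm* genes called lower numbered 2, 3 with the likelihood ratio test or without d6PGCLC replicate 1, and 1 with DESeq2, with either filter, without PGC replicates 2 and 4, and without d6PGCLC replicate 2, 3 or 4 or PGC replicate 1 or 2. The order of mean TPM kept 12 of 12 places with other units and when single libraries were left out, except without PGC replicate 2 (10 of 12), and was not recomputed without PGC replicates 2 and 4 together. The inducing signals called higher numbered 2, and 1 without PGC replicate 3, and the dissociation genes called higher 3, and 5 without PGC replicate 2. Deviations of libraries with the same number correlated at 0.44, 0.22, -0.11 and 0.099, and those with different numbers at -0.34 to 0.25. Such correlations cannot show whether the samples were paired, which is not given in the sources used here. The fit with a replicate block called 7270 genes in place of 6919, and gave log2 fold changes of 1.21 for *Prdm1*, 0.92 for *Prdm14*, 0.65 for *Tfap2c*, 0.84 for *Dppa3*, 0.94 for *Ifitm1* and 1.17 for *Ifitm3*, with no change of call among the members.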
